A study of Mus musculus with 5 samples.

Results

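CpG methylation in a parthenogenetic embryonic stem cell line (pESC) was compared with that in a biparental female embryonic stem cell line (female ESC), region by region, by reduced representation bisulfite sequencing (RRBS). RRBS cuts genomic DNA with MspI and reads the bisulfite-converted fragments, so it samples the CpG-rich part of the genome. A region entered the comparison when its CpG level was listed in all 5 libraries of the series, and 154711 of the 176303 regions listed in at least 1 library did so. They fell into 8 region classes: CpG islands and their shores, repeats, and parts of genes, namely promoters, introns, exons, and the 5' and 3' UTRs. The pESC were mouse cells of the C57BL6 strain and of parthenogenetic origin, grown on feeder cells in medium with serum and LIF; female ESC were biparental cells of the same strain, kept in the same way. A second pair of libraries, pESC-PGCLC and ESC-PGCLC, came from the same lines after induction towards primordial germ cells: passages in medium with inhibitors and LIF, 46 h as epiblast-like cells, 4 days as floating aggregates, and a sort for CD61 and SSEA1. The last library, PGC, was made from primordial germ cells taken from fetal gonads at E12.5 with SSEA1 beads. Every group had 1 library, and the labels do not say how many lines or clones stood behind it. No difference between libraries therefore has a replicate error or a test, and each difference below compares 2 libraries, not 2 kinds of cell.

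The listed CpG regions numbered 166516 in pESC and 157458 in female ESC. Read depth is unknown, since levels were deposited without coverage. Levels are given as a percentage of methylated CpG calls, differences as pESC minus female ESC in percentage points, and a region was called where the libraries stood at least 25 points apart. Cytosines in CHH context, whose level includes any incomplete conversion, averaged 0.58 to 0.619% in pESC and 0.587 to 0.637% in female ESC across the 8 classes. The assay reads DNA, so the cell type of each library cannot be checked on expressed markers.

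Imprinted genes are expressed from the copy inherited from a single parent. The choice is set by differentially methylated regions that acquire their methylation in the oocyte or in sperm and keep it through the embryo. Most of the known ones are methylated on the maternal copy and a few on the paternal copy; zinc finger proteins such as ZFP57 keep the mark in embryonic cells, and it is erased in germ cells. A parthenogenetic embryo has no sperm-derived chromosomes, so both copies carry the history of the oocyte. Mouse embryonic stem cells are also known to lose methylation, imprints included, in culture.

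The start regions of 4 imprinted genes that overlap an island called higher in pESC are shown here because their CpG content differs. The windows of Zrsr1, Nap1l5 and Peg3 reach beyond their islands, and the deposited levels do not say which CpG were read. Each run is a RefSeq promoter window on GRCm38.p6 of 300 bases, from 250 before to 50 after the gene's start, written 5' to 3' on the gene's strand, with every CpG in capitals. The window of Zrsr1, a splicing factor gene lying in an intron of Commd1, is chr11:22971755-22972054 on the plus strand and has 10 CpG. That of Nap1l5, a nucleosome assembly protein gene nested in Herc3, is chr6:58907077-58907376 on the minus strand and has 17 CpG. That of Peg3, a zinc finger gene, is chr7:6730370-6730669 on the minus strand and has 13 CpG. That of Plagl1, a zinc finger gene of cell cycle arrest, is chr10:13090582-13090881 on the plus strand and has 26 CpG.
Zrsr1: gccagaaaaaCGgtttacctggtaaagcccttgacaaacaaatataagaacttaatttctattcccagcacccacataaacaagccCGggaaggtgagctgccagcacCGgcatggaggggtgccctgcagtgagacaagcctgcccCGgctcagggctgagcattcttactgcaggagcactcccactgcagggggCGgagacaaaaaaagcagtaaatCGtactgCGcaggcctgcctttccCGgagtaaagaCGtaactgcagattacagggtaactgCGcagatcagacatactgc
Nap1l5: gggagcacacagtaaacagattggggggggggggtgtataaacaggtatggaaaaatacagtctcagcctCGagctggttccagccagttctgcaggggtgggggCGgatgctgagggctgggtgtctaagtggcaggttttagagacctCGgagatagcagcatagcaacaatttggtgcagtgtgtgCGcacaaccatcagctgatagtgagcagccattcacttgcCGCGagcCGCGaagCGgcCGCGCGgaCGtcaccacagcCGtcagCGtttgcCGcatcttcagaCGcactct
Peg3: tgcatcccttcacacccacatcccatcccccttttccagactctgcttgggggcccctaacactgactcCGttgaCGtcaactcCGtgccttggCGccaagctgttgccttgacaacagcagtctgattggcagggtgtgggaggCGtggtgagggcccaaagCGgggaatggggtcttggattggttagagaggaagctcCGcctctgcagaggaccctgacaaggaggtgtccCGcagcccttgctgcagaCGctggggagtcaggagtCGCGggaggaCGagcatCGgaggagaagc
Plagl1: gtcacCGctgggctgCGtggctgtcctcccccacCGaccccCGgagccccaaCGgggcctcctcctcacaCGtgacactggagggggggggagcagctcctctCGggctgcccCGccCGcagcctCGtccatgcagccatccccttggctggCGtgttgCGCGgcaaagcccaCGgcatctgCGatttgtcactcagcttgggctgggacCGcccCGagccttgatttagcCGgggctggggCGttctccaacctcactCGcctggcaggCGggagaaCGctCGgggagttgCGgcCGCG

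The bases TGCCGC, searched on both strands as the core of the ZFP57 site in mouse, occur at 2 places in the Nap1l5 window, at 1 in that of Plagl1, and not in those of Zrsr1 and Peg3. The hexamer was found in 11.6% of all 32851 RefSeq promoter windows, in 24.2% of the 11131 that overlap a measured island, and in 3 of the 7 that overlap an island at least 25 points higher in pESC. These 7 are not independent, since neighbours such as Commd1 and Zrsr1 share an island, and no enrichment was tested. CCGG, the MspI site and a palindrome that contains 1 CpG, occurs 4 times in the Zrsr1 window and 2 times in that of Plagl1. It is absent from the windows of Nap1l5 and Peg3. It was present in 52.8% of all windows and in 93.0% of those on measured islands. The median window had 7 CpG overall and 25 on measured islands.

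Among 14214 islands, 14 were called higher in pESC (0.0985%) and 4 lower (0.0281%). With pESC scaled to the mean of the class, the split was 16 higher and 2 lower, while at a threshold of 10 points it was reversed, with 27 islands higher and 128 lower. Of the 14, 12 lay at genes with maternally methylated germline regions. Over these 12 islands the level in pESC ran from 28.7 to 77.8% with a median of 57.2%, against 0.871 to 36.9% with a median of 17.8% in female ESC. The ranges of the libraries overlapped, but pESC was the higher at each of the 12, as the choice of called islands fixes. In female ESC, 5 of the 12 islands stood under 5% and none reached 50%, while in pESC none stood under 5% and 7 reached 50%.

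The 3 libraries outside the comparison set these levels in context. The same 12 islands had a median of 50.3% in pESC-PGCLC, with a range from 21.5 to 75.02%. Their median was 11.4% in ESC-PGCLC, with a range from 1.03 to 33.0%, and 42.9% in PGC, with a range from 22.6 to 63.2%. The PGC library therefore still held methylation at these islands, although germ cells erase imprints, and the make-up of its cells was not tested. Each PGCLC median thus lay nearer to that of its own line. All 12 islands were higher in pESC-PGCLC than in ESC-PGCLC, by 19.8 to 61.0 points with a median of 40.1, and 10 of the 12 passed 25 points there, where 0.0844% of all islands were called higher and 0 lower. The PGCLC libraries were made from the same lines, so this is a second measurement of the lines after induction and not of other parthenogenetic cells. CHH levels at these islands, Peg3 aside, were 0.426 to 0.764% in pESC and 0.234 to 0.916% in female ESC; at Peg3 they were 2.86% in pESC and 0% in female ESC.

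Airn encodes the noncoding RNA that silences Igf2r, the receptor that clears IGF2, on the paternal copy. Its island within Igf2r was methylated at 61.2% in pESC, 2.01% in female ESC, 62.1% in pESC-PGCLC, 1.03% in ESC-PGCLC and 52.1% in PGC. At Kcnq1ot1, whose antisense RNA silences neighbours in the Kcnq1 domain, the levels were 67.7% in pESC, 16.7% in female ESC, 75.02% in pESC-PGCLC, 20.5% in ESC-PGCLC and 61.7% in PGC. These regions differ in how much methylation female ESC held: the Airn island was nearly bare and that of Kcnq1ot1 was not. Peg13, a noncoding RNA gene in Trappc9, had 77.8% in pESC, 36.9% in female ESC, 74.2% in pESC-PGCLC, 33.0% in ESC-PGCLC and 63.2% in PGC. Impact, which encodes a regulator of translation, had 49.4% in pESC, 18.96% in female ESC, 47.1% in pESC-PGCLC, 21.0% in ESC-PGCLC and 39.8% in PGC.

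The 4 genes whose start windows are printed above fell into the same pattern from different baselines. Zrsr1 had an island at its start with 41.0% in pESC, 1.60% in female ESC, 43.0% in pESC-PGCLC, 1.61% in ESC-PGCLC and 35.1% in PGC. Plagl1 had the lowest level in pESC among the 12, with 28.7% in pESC, 1.35% in female ESC, 22.7% in pESC-PGCLC, 2.47% in ESC-PGCLC and 24.8% in PGC. At both of these starts female ESC and ESC-PGCLC were almost unmethylated. The Nap1l5 island held 56.1% in pESC, 22.8% in female ESC, 53.4% in pESC-PGCLC, 14.5% in ESC-PGCLC and 46.0% in PGC. Peg3 stood at 65.7% in pESC, 36.25% in female ESC, 58.8% in pESC-PGCLC, 12.2% in ESC-PGCLC and 50.3% in PGC, so that its difference in the PGCLC pair, 46.7 points, was larger than the 29.5 points between the stem cell libraries.

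**Figure D1:**
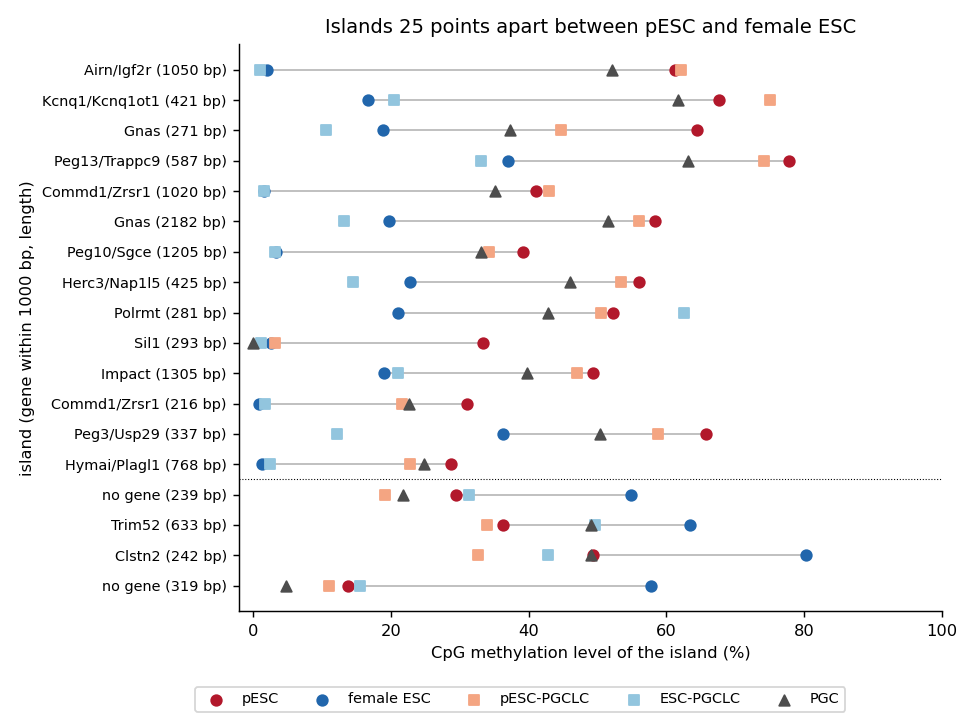
CpG methylation level in percent (horizontal axis) of the 18 islands called between pESC and female ESC, 1 island a line, named by genes within 1000 bp and by length, with 1 point for each of the 5 libraries and a grey line joining pESC and female ESC. Above the dotted line are the 14 islands higher in pESC; in the 12 at imprinted genes the pESC-PGCLC point lies nearer to pESC and the ESC-PGCLC point nearer to female ESC.

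Shores, the 2001 or 2002 bp segments beside islands, gave 32 regions called higher (0.192%) and 39 called lower (0.234%) among 16696, or 48 higher and 24 lower with pESC scaled to the class mean and 184 higher and 761 lower at 10 points. Of the 32, 12 lay at maternally methylated imprinted genes, and all of these 12 also passed 25 points in the PGCLC pair, with differences from 29.5 to 53.6 points and a median of 41.5. In that pair 0.114% of all shores were called higher and 0.0659% lower. The median of the 12 shores was 56.0% in pESC against 18.3% in female ESC. The shores are not independent of the islands: 9 of the 12 overlap a measured island, and 2 of these have its values within 0.05 points in both stem cell libraries. The 24 called islands and shores at maternally methylated genes make up 11 loci when regions within 10000 bp are joined.

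Mest, an imprinted gene of the hydrolase fold, entered by a shore alone. This shore had 53.7% in pESC, 6.59% in female ESC, 48.4% in pESC-PGCLC, 4.12% in ESC-PGCLC and 36.9% in PGC. At Zrsr1 and Commd1, 4 overlapping shores held 41.3 to 47.5% in pESC against 1.62 to 3.76% in female ESC. Gnas, which encodes the stimulatory G protein alpha subunit, contributed 2 islands and 3 shores. The longer of its islands had 58.4% in pESC, 19.7% in female ESC, 56.0% in pESC-PGCLC, 13.2% in ESC-PGCLC and 51.5% in PGC. In the shorter one the level was 64.4% in pESC, 18.9% in female ESC, 44.7% in pESC-PGCLC, 10.6% in ESC-PGCLC and 37.3% in PGC.

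At several imprinted genes a second island of the same gene or its host did not share the difference. Igf2r itself had a start island at 0.795% in pESC and 1.55% in female ESC, in contrast to the Airn island in its intron. Grb10, a growth-restraining adaptor gene with no called region, had 20.5% in pESC against 1.74% in female ESC at the island inside the gene, and 1.59% against 1.84% at the island of its upstream start. Commd1 had 1.27% in pESC and 1.24% in female ESC at its own start, and a Gnas island at an annotated start had 3.15% in pESC and 2.99% in female ESC. Blcap, the host gene of the brain proteolipid gene Nnat, had 1.52% in pESC and 1.22% in female ESC at its start, while the Nnat island, also not called, had 25.5% in pESC and 15.1% in female ESC. Apart from the Nnat island, which also lies at an annotated start, these start islands were at most 3.15% methylated in either line. The called islands of Zrsr1, Nap1l5 and Plagl1 lie at starts as well.

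The maternal list as a whole had 29 measured islands and 36 shores. Of the islands, 22 were higher and 7 lower in pESC, and 12 were called (41.4%); of the shores, 22 were higher and 14 lower, and 12 were called (33.3%). Outside every imprinted list, 6 of 14155 islands (0.0424%) and 59 of 16636 shores (0.355%) were called in either direction. Inpp5f, a phosphoinositide phosphatase gene, lay just under the threshold, at 48.6% in pESC and 26.1% in female ESC, and was 25.1 points apart in the PGCLC pair. Members that did not move with the rest included Slc38a4, an amino acid transporter gene whose shore had 3.74% in pESC and 8.62% in female ESC, Fkbp6, a meiotic gene with 50.4% in pESC against 57.0% in female ESC at its start island, and Cdh15, a cadherin gene with an island at 79.0% in pESC and 78.0% in female ESC.

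Regions at genes controlled by paternal germline methylation gave no call among 8 islands and 5 shores. H19 and Meg3, which lie beside the best known of these control regions, had no region measured in all 5 libraries. All but 2 of the 8 islands had under 5% in both lines. An island within Dlk1, which encodes a Notch-related ligand, had 24.3% in pESC, 35.0% in female ESC, 22.4% in pESC-PGCLC, 25.1% in ESC-PGCLC and 23.5% in PGC. Igf2, the fetal growth factor gene, had a shore at 21.6% in pESC and 27.5% in female ESC and a start island at 1.75% in pESC and 2.70% in female ESC. Rasgrf1, a guanine nucleotide exchange factor gene, had 1.42% in pESC and 2.23% in female ESC at its start. Of the regions of other imprinted genes, listed with somatic or no known germline methylation, none of 22 islands or 19 shores was called. The largest differences there were at shores of Slc22a3, an organic cation transporter gene, with 21.5% in pESC and 34.8% in female ESC, and of Ano1, a chloride channel gene, with 36.0% in pESC and 48.9% in female ESC. Cdkn1c, the cell cycle inhibitor of the Kcnq1 domain, had an island at 2.06% in pESC and 2.63% in female ESC.

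Called regions outside the imprinted lists did not recur in the same way. Inside Polrmt, the gene of the RNA polymerase of mitochondria, an island had 52.2% in pESC and 21.1% in female ESC, but 50.5% in pESC-PGCLC and 62.6% in ESC-PGCLC, so that female ESC stood apart from the other libraries. Sil1 encodes a nucleotide exchange factor that serves the chaperone BiP. Its island had a raised level in pESC alone, at 33.3% against 2.52% in female ESC, 3.23% in pESC-PGCLC, 1.15% in ESC-PGCLC and 0% in PGC. No CHH level was listed for the Sil1 island in pESC, and the read depth behind its CpG level is unknown. The 4 islands called lower, at Trim52, within Clstn2 and at 2 places without an annotated gene, were lower in the PGCLC pair as well, by differences of -15.7 to -4.48 points, and none passed 25 points there. Just outside the threshold on the lower side was an island at Speg, a muscle kinase gene, with 29.5% in pESC and 54.4% in female ESC.

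Of the 20 higher shores at no imprinted gene, 1 was also called higher in the PGCLC pair and 2 were called in the opposite direction; 10 had the same sign, and the median PGCLC difference was -0.52 points. The shore that recurred lies at Crocc, the gene of the ciliary rootlet protein rootletin, with 43.5% in pESC, 0% in female ESC, 45.5% in pESC-PGCLC, 6.25% in ESC-PGCLC and 50% in PGC. Of the 39 lower shores, none was called lower in the PGCLC pair and 2 were called in the opposite direction; 21 had the same sign and the median PGCLC difference was -0.333 points. Levels of exactly 0 or 100% in either stem cell library, which arise readily where few reads cover a region, were present at 9 of these 20 higher shores and at 5 of the 39 lower ones. They were absent from all 24 called regions at maternally methylated genes. At each of the 9 higher shores the exact level was 0% in female ESC. Over all shores exact levels numbered 449 in female ESC and 320 in pESC, and over all repeats 914 and 358. Only in 5' UTRs were there more in pESC, with 346 in female ESC and 406 in pESC. Over all classes 23.9% of the 1664 called regions had such a level, against 2.07% of all regions, and the part of read depth in these calls was not tested.

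**Figure D2:**
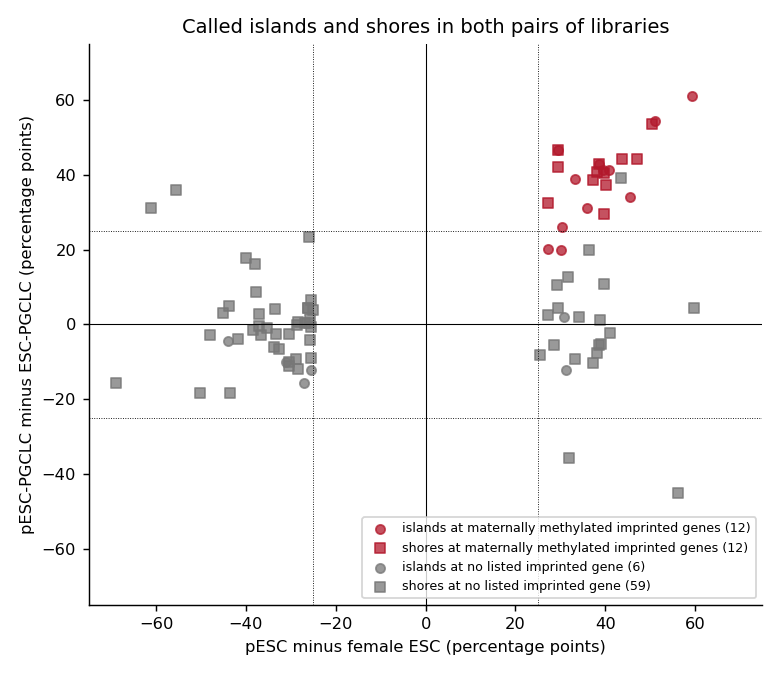
Difference between pESC and female ESC (horizontal axis, percentage points) against the difference between pESC-PGCLC and ESC-PGCLC (vertical axis, percentage points) for every called island (circles) and shore (squares), with dotted lines at 25 points. The 24 regions at maternally methylated imprinted genes (red) lie at 19.8 points or more in both pairs, while the other regions (grey) scatter around a PGCLC difference of 0, apart from the shore at Crocc and 4 shores past 25 points in the opposite direction.

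Averaged over all regions of a class, called ones included, the pESC library was slightly less methylated in all 8 classes. Islands averaged 3.55% in pESC and 3.91% in female ESC, shores 12.9% in pESC and 14.3% in female ESC, and 5' UTRs 4.52% in pESC and 4.89% in female ESC. Promoters averaged 15.9% in pESC and 17.2% in female ESC, exons 21.4% in pESC and 23.0% in female ESC, and introns 27.8% in pESC and 29.6% in female ESC. The differences were largest in the most methylated classes: 3' UTRs averaged 38.5% in pESC and 42.5% in female ESC, a difference of -4.03 points, and repeats 46.3% in pESC and 50.2% in female ESC, a difference of -3.94 points. The spread of single regions was wider than these shifts, with standard deviations over regions from 2.33 points in islands to 8.60 in repeats. The share of regions lower in pESC was 53.5% in 5' UTRs, 58.0% in islands, 61.2% in shores, 76.6% in repeats and 78.5% in 3' UTRs. The same shift was seen in the PGCLC pair in all 8 classes, with mean differences from -0.080 points in islands to -2.10 in repeats.

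The shift was shared by the chromosomes. Island means were lower in pESC on all 20 chromosomes measured, by differences of -0.552 to -0.167 points on the 19 autosomes and -0.587 on the X, and shore means likewise, by -1.70 to -0.925 points on autosomes and -1.18 on the X. Islands at gene starts differed least, with 1.75% in pESC and 1.84% in female ESC over 8067. Those inside genes had 6.07% in pESC and 6.75% in female ESC over 5516, and those between genes differed most, with 4.62% in pESC and 5.37% in female ESC over 631. Of the 14 islands called higher, 11 lay inside genes, 3 at a gene start and 0 between genes.

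Regions were also binned by their mean level in PGC, ESC-PGCLC and pESC-PGCLC, libraries that the comparison does not use. Under 5% the lines hardly differed: islands had 1.63% in pESC and 1.71% in female ESC, and promoters 2.06% in pESC and 2.05% in female ESC. Between 40 and 50% the mean was 49.1% in pESC and 55.2% in female ESC over 82 islands, and 48.9% in pESC and 54.4% in female ESC over 721 shores. Promoters of that bin, 1340 in number, had 48.9% in pESC and 54.5% in female ESC, and 2939 introns had 49.2% in pESC and 54.0% in female ESC. In that bin 90.2% of islands and 86.8% of introns were lower in pESC. Introns of low level went the other way: between 5 and 10% they averaged 8.39% in pESC and 7.57% in female ESC, and 60.7% of 1927 were higher in pESC. Exons in that bin had 7.95% in pESC and 7.73% in female ESC, while shores had 7.01% in pESC and 7.63% in female ESC and islands 6.43% in pESC and 7.72% in female ESC. In the PGCLC pair the introns of that bin differed by -0.037 points, so their excess in pESC was not seen there.

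**Figure D3:**
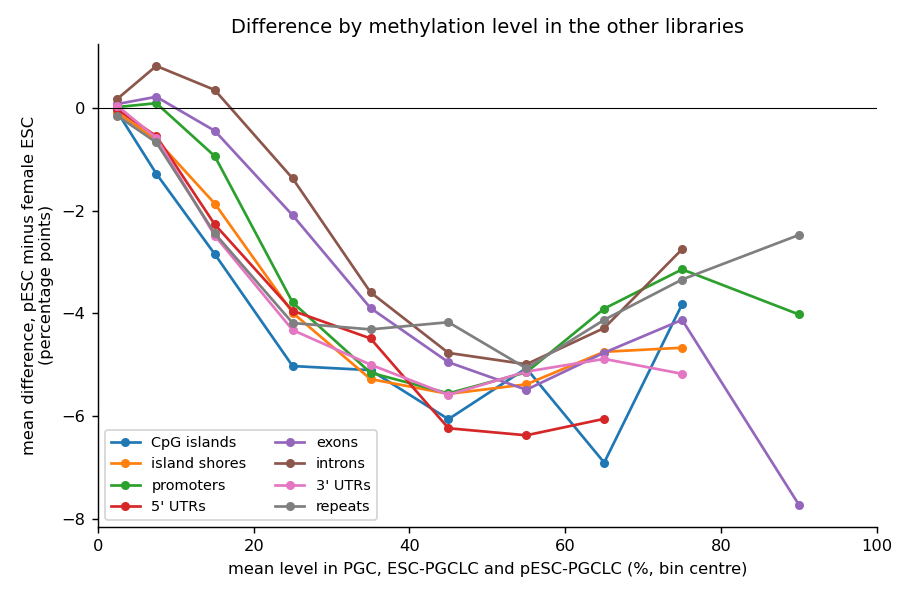
Mean difference between pESC and female ESC in percentage points (vertical axis) by bin of the mean level in PGC, ESC-PGCLC and pESC-PGCLC (horizontal axis, percent, bin centre), 1 line for each region class, bins of at least 20 regions. Every class lies near 0 in the lowest bin and below 0 from 20% upward, and introns peak at 0.816 points, at levels between 5 and 10%.

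Within genes the mean difference tended to be larger in more methylated parts, but parts of like level could differ. Genes with promoters under 10% in the 3 other libraries, 13267 in number, had promoters at 2.82% in pESC and 2.79% in female ESC, and introns at 20.0% in pESC and 20.4% in female ESC. Their 3' UTRs, where measured, had 38.03% in pESC and 41.9% in female ESC over 2687 genes. Genes with promoters of 30% and over, 4346 in number, had promoters at 52.3% in pESC and 57.3% in female ESC, exons at 42.4% in pESC and 46.5% in female ESC, and 3' UTRs at 41.9% in pESC and 46.0% in female ESC. The mean 3' UTR difference was thus close in genes with bare and with methylated promoters, at -3.89 and -4.07 points. Introns of genes with promoters under 10%, at 20.0% in pESC, differed by -0.436 points. At a like level of 20.4% in pESC, 5' UTRs of genes with promoters of 30% and over differed by -2.42 points.

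Classes listed by gene, and repeats, had a larger share of regions called in both directions than islands. Promoters had 39 called higher (0.191%) and 54 lower (0.265%), 5' UTRs 13 higher (0.112%) and 15 lower (0.129%), and exons 65 higher (0.314%) and 76 lower (0.367%). Introns had 52 higher (0.26%) and 72 lower (0.361%), 3' UTRs 21 higher (0.472%) and 27 lower (0.607%), and repeats 351 higher (0.753%) and 790 lower (1.69%). Scaling pESC to the class mean turned the balance in most of them, to 54 higher and 41 lower in promoters, 16 higher and 9 lower in 5' UTRs, 82 higher and 51 lower in exons, 69 higher and 53 lower in introns, and 29 higher and 16 lower in 3' UTRs, while repeats still had more lower calls, with 481 higher and 560 lower. At 10 points lower calls outnumbered higher ones in every class, with 222 higher and 1027 lower in promoters and 86 higher and 603 lower in 3' UTRs, and at 40 points exons had 20 higher and 11 lower and introns 17 higher and 13 lower. Without levels of exactly 0 or 100% the higher calls were 10 in 3' UTRs and 178 in repeats. Regions with at least 25% in female ESC, in which a call lower was possible, were 3.41% of islands, 21.4% of shores, 27.0% of promoters and 86.4% of repeats.

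How many called regions of the other classes were called again in the PGCLC pair differed by direction in promoters, 5' UTRs and introns. Promoters, UTRs, exons and introns could not be matched to gene symbols, so those of imprinted genes were not set apart. Their counts may therefore repeat the imprinted loci described above. Of the 39 higher promoters, 17 were also called higher there, and of the 54 lower ones 1 was also called lower, where 0.123% of all promoters were called higher and 0.113% lower in that pair. For 5' UTRs the counts were 5 of 13 higher and 0 of 15 lower (0.0601% of all called higher and 0.0172% lower in that pair). For introns 8 of 52 higher and 0 of 72 lower recurred (0.0751% of all higher and 0.0851% lower), and for exons 9 of 65 higher and 7 of 76 lower (0.0773% of all higher and 0.13% lower). In 3' UTRs 2 of 21 higher and 2 of 27 lower recurred (0.247% of all higher and 0.292% lower), and in repeats 30 of 351 higher and 63 of 790 lower (0.459% of all higher and 0.823% lower). In repeats, 32 of the higher and 38 of the lower entries were called in the opposite direction in PGCLC, about as many on the higher side as recurred.

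**Figure D4:**
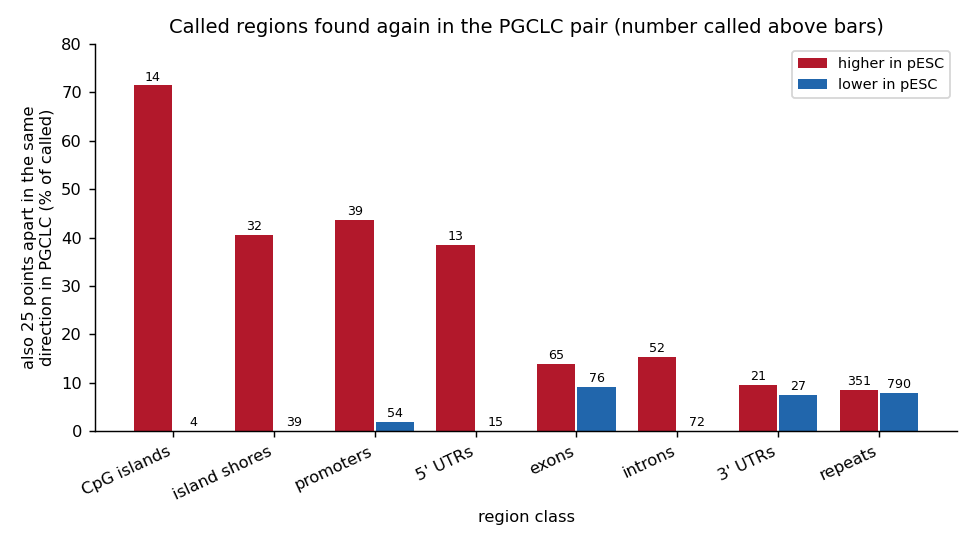
Share of called regions that were also at least 25 points apart in the same direction between pESC-PGCLC and ESC-PGCLC (vertical axis, percent of called), for each region class (horizontal axis), higher in pESC in red and lower in blue, with the number called above each bar. The share on the higher side is 71.4% in islands, 43.6% in promoters and 40.6% in shores and at most 15.4% in exons, introns, 3' UTRs and repeats; no class passes 9.21% on the lower side.

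Of the 39 promoters called higher, 29 belonged to genes with measured exons, and these were higher in 24, with a median of 27.3% in pESC and 7.15% in female ESC. Introns were higher in 16 of 24 measured, 5' UTRs in 11 of 17 and 3' UTRs in 2 of 5, where the median difference was -2.06 points. Of the 54 promoters called lower, exons were lower in 20 of 31, introns in 24 of 28, 5' UTRs in 9 of 10 and the 3' UTR in the 1 measured. Over all genes 61.7% of exons and 63.3% of introns were lower, so the share for exons is near the background. Calls in several classes were few: 3 genes were called higher in 4 classes and 2 in 3, and 2 genes were called lower in 3 and 0 in 4. The parts of a gene overlap and share reads. Genes can overlap too: a gene called higher in 4 classes and another called in 3 had the same intron levels, 69.3% in pESC and 24.1% in female ESC. Of the genes called higher in 4 classes, ENSMUSG00000102252, given by its identifier since the deposited data pair it with no symbol, had a promoter at 82.7% in pESC, 34.4% in female ESC, 83.6% in pESC-PGCLC, 32.0% in ESC-PGCLC and 70.4% in PGC. Its introns stood at 71.9% in pESC and 31.6% in female ESC. ENSMUSG00000000948 had a promoter at 77.5% in pESC, 33.1% in female ESC, 78.1% in pESC-PGCLC, 29.6% in ESC-PGCLC and 66.1% in PGC. On the higher side the largest promoter difference was at ENSMUSG00000026888, with 83.3% in pESC and 2.21% in female ESC. This promoter had 6.25% in pESC-PGCLC, 0.709% in ESC-PGCLC and 3.17% in PGC, so that pESC stood apart there. The promoters with the largest differences on the lower side were those of 2 genes. ENSMUSG00000097294 had 37.8% in pESC, 92.3% in female ESC, 45.5% in pESC-PGCLC, 37.5% in ESC-PGCLC and 51.7% in PGC, and ENSMUSG00000032606 had 23.4% in pESC, 68.6% in female ESC, 17.0% in pESC-PGCLC, 19.5% in ESC-PGCLC and 15.6% in PGC, so that female ESC stood apart from the other 4 libraries at both.

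Repeats, the DNA of transposable elements that cells hold silent largely through methylation, were lower in pESC across the board. All 19 repeat classes and all 159 families with at least 50 entries had a lower mean in pESC, the families by -8.26 to -1.61 points with a median of -4.24, and all 159 were lower in pESC-PGCLC than in ESC-PGCLC too. The 159 families hold 38680 of the 46641 entries. The largest difference was in MLT1D, an old LTR family, with 45.1% in pESC and 53.3% in female ESC over 95 entries. L1MB7 followed with -7.30 points, then MER2 with -6.99, RMER13A1 with -6.56 and Lx9 with -6.52. The smallest differences were in MMERVK9E_I-int, the internal part of an endogenous retrovirus, with 56.8% in pESC and 58.4% in female ESC over 70 entries, and in B1_Mur1 (-1.88 points), B1F1 (-1.90), MuRRS4-int (-1.91) and IAPLTR3-int (-2.02). The standard deviation over entries was 6.07 to 13.9 points in the 10 families named, larger than the mean difference in each.

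By group, IAP elements, retroviruses that stay methylated through much of development, had 67.7% in pESC and 70.6% in female ESC over 935 entries. The young L1 families L1Md A, Tf and Gf, which include the active mouse LINE elements, had 53.7% in pESC and 57.0% in female ESC, and the older L1Md F, N and V families 51.8% in pESC and 55.2% in female ESC. Lx elements had 44.5% in pESC and 49.3% in female ESC, and the remaining L1 families 45.7% in pESC and 51.5% in female ESC. MERVL with its MT2 LTRs, active in the early embryo, had 42.5% in pESC and 47.2% in female ESC. The short B1 elements had 36.7% in pESC and 39.7% in female ESC, and ETn and MusD retroviruses 59.4% in pESC and 62.7% in female ESC. The differences ran from -5.79 points in the remaining L1 families to -2.88 in IAP. Short entries gave more calls: 4.57% of entries up to 100 bp long were called against 0.85% of those over 1000 bp, with standard deviations of 10.9 and 5.69 points, while the mean difference was -4.30 and -3.54 points.

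**Figure D5:**
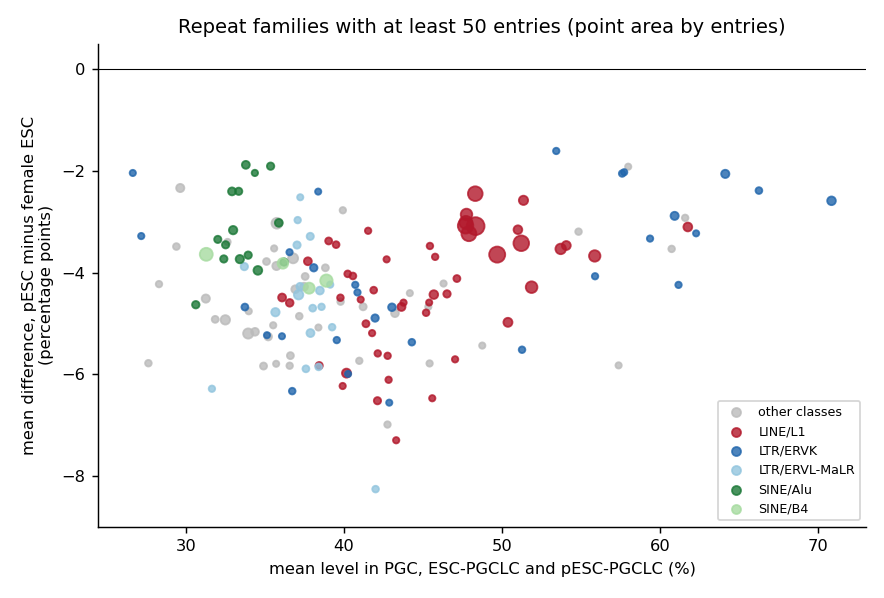
Mean difference between pESC and female ESC in percentage points (vertical axis) against the mean level in PGC, ESC-PGCLC and pESC-PGCLC in percent (horizontal axis) for the 159 repeat families with at least 50 entries, coloured by repeat class, with point area by number of entries. All points lie below 0, from -8.26 points in MLT1D to -1.61 in MMERVK9E_I-int.

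Each gene was also given the level of the longest island within 1000 bp of either of its ends, or of a shore where there was no island; 12081 genes had a value and 10 were called in either direction (0.0828%). Over all of them 5238 were higher and 6824 lower in pESC, with a median difference of -0.060 points. The maternal imprinted list stood at 16 higher and 7 lower of 23, with 9 called and a median difference of 4.62 points, or 15.2 points with the mean over every island and shore of a gene. It was the only list of the 12 with a median difference above 1 point; Usp29, which shares the Peg3 island, was the single call among the 19 other imprinted genes, whose median difference was 0.198 points. Germline genes, many of which are held methylated outside the germ line, were lower at 17 of 21, with a median difference of -3.72 points and none called. Sycp3, a synaptonemal complex gene, had 49.0% in pESC and 54.4% in female ESC, and Dazl, an RNA-binding germ cell gene, 20.9% in pESC and 25.5% in female ESC. Islands between 20 and 30% in the 3 other libraries differed by -5.03 points on average. The list is given as a description, since it was not compared with islands of equal level by a test.

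Pluripotency genes were unmethylated in both lines, the median over 9 measured members of 19 listed being 1.36% in pESC against 1.35% in female ESC. Pou5f1 and Nanog were not among those measured. Over all 12081 genes with a value the medians were 1.46% in pESC and 1.50% in female ESC, so such low levels do not check cell identity. Sox2, a core pluripotency factor gene, had 1.36% in both lines, and Klf4 had 1.59% in pESC and 1.73% in female ESC. Genes of the methylation machinery were alike at the median, at 1.32% in pESC against 1.27% in female ESC over 14; Dnmt3l, the cofactor of de novo methylation, was the exception, with a shore at 33.7% in pESC and 39.0% in female ESC. Fibroblast genes, a possible sign of feeder DNA, were unmethylated in both, at 1.62% in pESC against 1.72% in female ESC over 6, which does not measure the share of feeder cells; that share was not tested. Around Xist, the RNA gene of X inactivation, which had no measured region itself, Ftx had a shore at 10.1% in pESC and 5.56% in female ESC, and Jpx and Rlim stood at 1.11 to 1.23% in pESC and 0.998 to 1.02% in female ESC. Of 319 X-linked genes, 127 were higher and 190 lower in pESC, with a median difference of -0.158 points. Of 25 clustered protocadherins, which give neurons their surface identity, 19 were lower, with a median difference of -1.68 points. Zinc finger genes divided into 104 higher and 122 lower of 227 (median -0.022), and receptors for smell and pheromones into 3 higher and 3 lower.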

How the data were processed

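CpG methylation was measured by RRBS in 5 mouse libraries, 1 for each group. The authors deposited a fraction from 0 to 1, the methylation level of each region, with its class and cytosine context; Bismark 0.16.3 and Bowtie2 on mm10 were used per the submitters' processing notes, and neither a coverage filter nor the way regions were drawn is stated there. Percent levels in the text are 100 times the deposited fraction.

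Region differences, means and counts at 25 points were computed with Python 3.11.15, pandas 2.3.3 and numpy 2.4.6, and no p-value was computed. The calling step was run on simulated data in which every region had the same assumed read depth and raised regions rose by 40 points. The real depth is unknown, so this run does not give the rate of false calls in these libraries. Islands and shores were assigned to RefSeq genes of GRCm38.p6 within 1000 bp. Of 30044 Ensembl gene identifiers, 0 matched a symbol, so only a few per direction are named. Named were called islands and shores, the imprinted lists, the largest members of other lists, and the repeat families with the highest and lowest means. Members and lists were chosen with earlier results of these data known. Alternatives were thresholds of 10 and 40 points, medians, regions listed in the stem cell libraries alone, removal of levels of exactly 0 or 1, scaling of pESC, subtraction of CHH levels, and gene-wide means.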

Additional observations from a re-analysis of the deposited data

Results flagged for a closer look

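At 4 shores, none at a listed imprinted gene, the stem cell pair and the PGCLC pair stood at least 25 points apart in opposite directions. At Zfp385c and C11H17orf113 the stem cell difference was 56.3 points (66.3% in pESC, 10% in female ESC) and the PGCLC difference -45 points (45% in pESC-PGCLC, 90% in ESC-PGCLC). At Chst3, a chondroitin sulfotransferase gene, they were 32 points (32% in pESC, 0% in female ESC) and -35.7 points (14.3% in pESC-PGCLC, 50% in ESC-PGCLC). At Speg they were -55.6 points (11.1% in pESC, 66.7% in female ESC) and 36.1 points (63.6% in pESC-PGCLC, 27.6% in ESC-PGCLC). At Sfswap, a splicing regulator gene, and Gm40332 they were -61.2 points (38.8% in pESC, 100% in female ESC) and 31.2 points (100% in pESC-PGCLC, 68.8% in ESC-PGCLC). With 1 library a group, the difference between the pairs was not tested.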

How the results depend on the processing

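At a threshold of 10 points the counts of called regions were 155 islands (27 higher and 128 lower), 945 shores (184 and 761), 1249 promoters (222 and 1027), 271 5' UTRs (64 and 207), 1796 exons (420 and 1376), 1555 introns (404 and 1151), 689 3' UTRs (86 and 603) and 8843 repeats (1705 and 7138), so that lower calls outnumbered higher ones in all 8 classes. At 40 points they were 5 islands (4 higher and 1 lower), 18 shores (8 and 10), 23 promoters (12 and 11), 6 5' UTRs (2 and 4), 31 exons (20 and 11), 30 introns (17 and 13), 12 3' UTRs (5 and 7) and 309 repeats (98 and 211). The totals follow from the threshold by construction; the cause of the change in balance was not tested. The median in place of the mean difference gave -0.0785 points in islands, -0.425 in shores, -0.208 in promoters, -0.0571 in 5' UTRs, -0.364 in exons and -0.910 in introns. The mean over every island and shore of a gene moved the list medians to 15.2 points for maternal imprinted genes, -0.0406 for methylation machinery, -0.495 for fibroblast genes, -0.201 for zinc finger genes and -0.705 for receptors of smell and pheromones, and turned that of pluripotency genes to 0.0165; the cause was not tested. Regions listed in the stem cell libraries alone, removal of levels of exactly 0 or 1, CHH subtraction and scaling moved no total of calls by over 1.5 times, but some splits did move. Scaling left more higher than lower calls in shores, promoters, 5' UTRs, exons, introns and 3' UTRs, all of which had more lower calls as deposited. Removal of exact levels lowered the higher calls to 10 of 21 in 3' UTRs and to 178 of 351 in repeats, against 24 of 27 and 639 of 790 lower calls. No paired analysis was possible because each group had 1 library, and no replicate could be left out for the same reason. Coverage is unknown, so the counting error of a region cannot be given.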
